A study of Homo sapiens with 24 samples.

Results

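The response of TALL-1 cells to NVS-ZP7-3 was set against the response of P12-ICHIKAWA cells, gene by gene, as a difference of differences: NVS-ZP7-3 minus DMSO in TALL-1, minus the same in P12-ICHIKAWA. Both are human cell lines of T-cell acute lymphoblastic leukaemia (T-ALL). A gene was a member when its brightest probe set averaged log2 6 or more on the DMSO arrays of TALL-1 and of P12-ICHIKAWA, which 7940 of the 10661 genes tested did. The groups were TALL-1 with NVS-ZP7-3, TALL-1 with DMSO, P12-ICHIKAWA with NVS-ZP7-3 and P12-ICHIKAWA with DMSO, with 3 arrays each, 12 of the 24 arrays of the study. All cells were exposed for 16 h, and DMSO was at 0.5% in treated and control cells alike. The other 12 arrays held RPMI-8402 and SUPT11, also T-ALL lines. The labels give no dose or target of the compound and leave it unsaid whether the arrays of a group are separate cultures. The p-values therefore reflect only how these arrays vary, which may be technical. In such bulk RNA, fewer cells of a type and less RNA per cell cannot be told apart. Each line is a single line, and no other line of its kind was averaged with it.

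NVS-ZP7 compounds are known as inhibitors of SLC39A7, also called ZIP7, a zinc transporter in the membrane of the endoplasmic reticulum (ER) that moves zinc into the cytosol. The ER folds secreted and membrane proteins, and when unfolded protein builds up, the sensors IRE1, PERK and ATF6 raise chaperones, protein disposal and export machinery through the factors XBP1, ATF4 and ATF6. ATF4 also answers to amino acid shortage and raises CHOP, amino acid transporters and aminoacyl-tRNA synthetases. Notch receptors are membrane proteins folded in the ER, and Notch signalling drives many T-ALL lines through targets such as MYC, HES1 and DTX1.

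Of the 7940 members, 1818 differed in response between the lines (22.9%; limma, adjusted p below 0.05), 1023 of them above 0 (12.9%) and 795 below 0 (10.0%). Above 0 means a larger rise or a smaller fall in TALL-1. The response itself was called for 3835 members in TALL-1 (48.3%), 1939 higher (24.4%) and 1896 lower (23.9%), and for 657 in P12-ICHIKAWA (8.27%), 400 higher (5.04%) and 257 lower (3.24%). Over all 10661 genes tested the shares were 21.2% for a difference (12% above and 9.15% below 0), 41.9% for TALL-1 (22.3% higher and 19.6% lower) and 7.89% for P12-ICHIKAWA (4.91% higher and 2.98% lower). All 3 treated arrays lay above all 3 DMSO arrays for 28.1% of members in TALL-1 and 12.5% in P12-ICHIKAWA, and below them for 28.2% and 11%, against 25.5%, 11.9%, 23.3% and 9.5% of all genes tested. Most members with a called difference, 1499 of 1818, had a called response in TALL-1 and none in P12-ICHIKAWA. A further 155 responded in the same direction in both lines and more in TALL-1, 11 in the same direction and more in P12-ICHIKAWA, 31 in opposite directions, 67 in P12-ICHIKAWA without a call in TALL-1, and 55 in neither line. With each array centred on its median, the split turned to 843 above and 1137 below 0, or 42.6% above 0 against 56.3%, so the balance of the directions rests on the scaling.

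The 2 sets of responses ran together in part. Of the 517 members called in both lines, 486 moved in the same direction, 299 up and 187 down, and 320 of these showed no called difference. Across members the responses correlated at Pearson 0.49 and Spearman 0.48, as a description over genes, which are not independent replicates. Their standard deviation was 0.44 in TALL-1 and 0.22 in P12-ICHIKAWA on the log2 scale. A response of at least 1 in size with a call was found for 299 members in TALL-1 and for 32 in P12-ICHIKAWA.

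**Figure D1:**
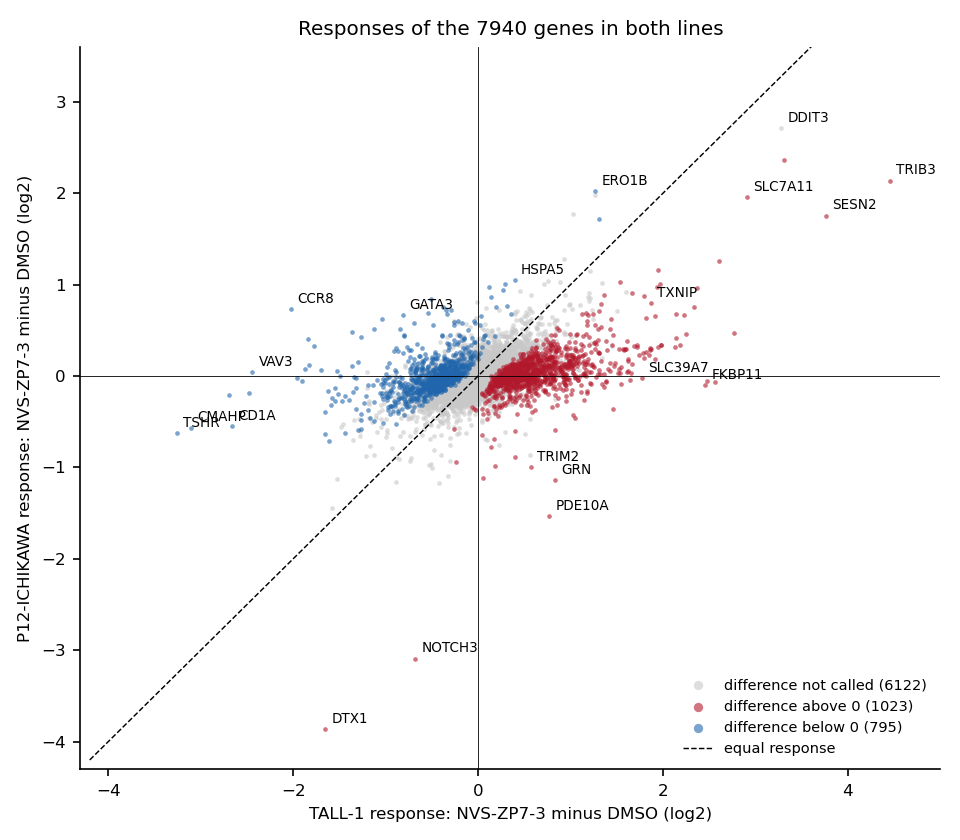
Response to NVS-ZP7-3 (NVS-ZP7-3 minus DMSO, log2) of each of the 7940 members in TALL-1 (x axis) and P12-ICHIKAWA (y axis), 1 point a gene. Red points (1023) have a called difference above 0, blue points (795) below 0, grey points (6122) none. TRIB3 and SESN2 lie far to the right above 0 in both lines, and NOTCH3 and DTX1 lie far below 0 in P12-ICHIKAWA.

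T lineage genes were expressed in both lines: CD3D, CD3E, CD3G and LCK lay above log2 11 on every array, while CD2 was at the floor of the scale (log2 2.18) in P12-ICHIKAWA and CD5 was near it in TALL-1. Arrays of a group correlated at 0.995 to 0.998. An array that stood apart was TALL-1 with NVS-ZP7-3 replicate 2. It was judged by 38 genes below log2 2.5 in TALL-1 with DMSO and at log2 10 or more on every DMSO array of all other lines. On replicate 2, 21 of the 38 reached log2 3, against 1 on each other TALL-1 array with NVS-ZP7-3. The TALL-1 arrays with DMSO offer no comparison, since the genes were chosen to be low on them. Such genes cannot point to a single line as the source. HBB, a red cell globin, was at 11.4, 8.17 and 7.96 in P12-ICHIKAWA with NVS-ZP7-3, against 2.18 to 2.29 with DMSO, and at 7.96 on TALL-1 array 1 with NVS-ZP7-3. LYZ, a lysozyme of myeloid cells, was at 8.01, 5.59 and 5.50 in P12-ICHIKAWA with NVS-ZP7-3, against 2.28, 2.95 and 2.99 with DMSO (two-sided exact permutation p = 0.1), and in TALL-1 at 9.04, 2.19 and 2.26 with NVS-ZP7-3, against 5.43, 8.62 and 2.18 with DMSO. LYZ thus separated in P12-ICHIKAWA and overlapped in TALL-1, and its part in the results was not tested. Of the erythroid markers, 5 of the 6 measured were at the floor, and the part of the HBB signal in the results was tested only as a covariate. The 3' minus 5' signal of ACTB, which grows as RNA is degraded, averaged 0.49 higher with NVS-ZP7-3 than with DMSO in TALL-1 (two-sided exact permutation p = 0.1, the smallest that 3 arrays against 3 allow) and 0.044 higher in P12-ICHIKAWA (exact permutation p = 0.8). It moved with the treatment of TALL-1, and its part in the results was tested only as a covariate: with it, 786 members lay above 0 and 715 below 0, of which 688 and 499 were also called without it.

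The genes with the largest differences above 0 included ER proteins. FKBP11 and FKBP14 encode prolyl isomerases of the ER. FKBP11 was at 13.94, 13.93 and 13.88 in TALL-1 with NVS-ZP7-3, against 11.70, 11.43 and 11.26 with DMSO, and at 10.68, 10.55 and 10.32 in P12-ICHIKAWA with NVS-ZP7-3, against 10.88, 10.67 and 10.32 with DMSO. All TALL-1 arrays with NVS-ZP7-3 lay above all with DMSO, and the P12-ICHIKAWA groups overlapped. The difference was 2.56 ± 0.18 (SE; limma adjusted p = 1.85e-08). FKBP14 was at 10.73, 10.57 and 10.47 in TALL-1 with NVS-ZP7-3, against 8.23, 8.31 and 7.80 with DMSO, and at 8.66, 8.74 and 8.60 in P12-ICHIKAWA with NVS-ZP7-3, against 8.99, 8.56 and 8.60 with DMSO. FKBP14 likewise separated only in TALL-1, with a difference of 2.53 ± 0.26 (limma adjusted p = 1.13e-06). CKAP4, a membrane protein of ER sheets, changed by 1.46 in TALL-1 and by -0.36 in P12-ICHIKAWA, where it lay near log2 6 and was not called. DLX2, a homeobox factor, was higher by 2.57 in TALL-1 and not called in P12-ICHIKAWA (-0.07), the largest difference above 0 at 2.64 ± 0.31 (limma adjusted p = 5.85e-06). FZD2, a Wnt receptor, and PAIP2B, an inhibitor of translation, differed by 2.30 and 1.85.

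**Figure D2:**
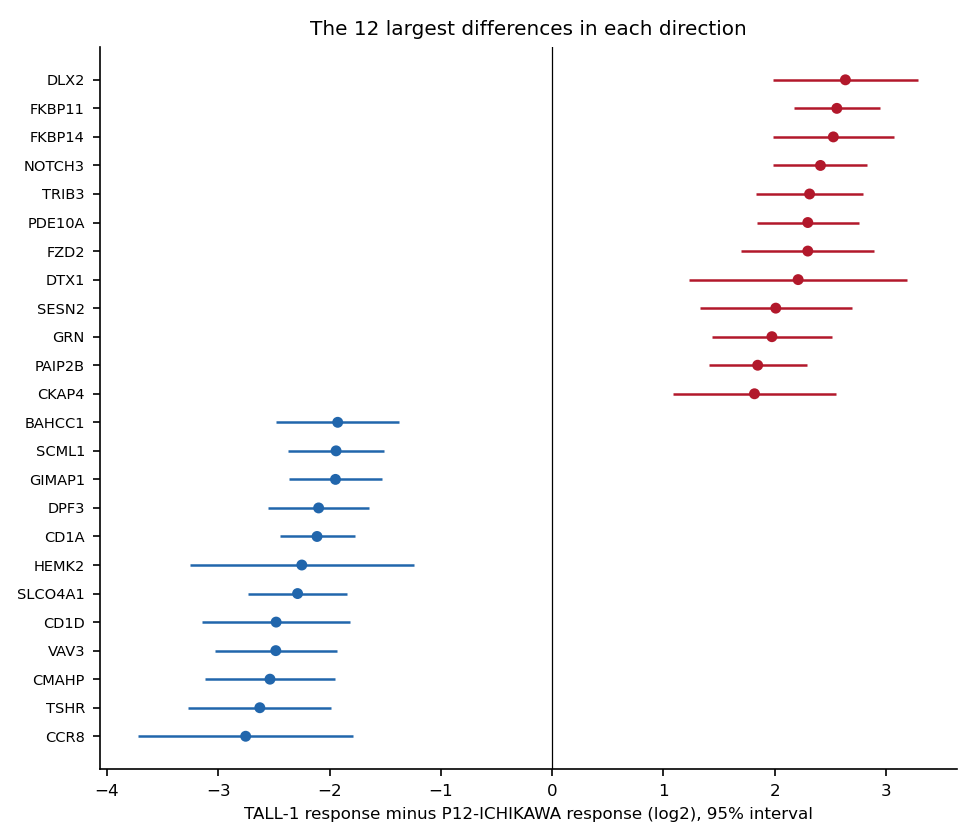
The 12 members with the largest called difference above 0 (red) and the 12 below 0 (blue), as TALL-1 response minus P12-ICHIKAWA response on the log2 scale with its 95% interval from limma. DTX1, HEMK2 and CCR8 have the widest intervals. The genes were picked among those called, so intervals clear of 0 follow from the choice.

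The members with the largest differences below 0 fell in TALL-1 with no called change in P12-ICHIKAWA, except CD1A, which fell in both. CD1A and CD1D encode lipid-presenting molecules of immature T cells. CD1A was at 7.47, 7.81 and 8.02 in TALL-1 with NVS-ZP7-3, against 10.65, 10.23 and 10.41 with DMSO, and at 10.22, 10.38 and 10.43 in P12-ICHIKAWA with NVS-ZP7-3, against 10.70, 10.94 and 11.03 with DMSO. Both lines separated, and the response was -2.66 in TALL-1 and -0.55 in P12-ICHIKAWA, a difference of -2.11 ± 0.16 (limma adjusted p = 3.53e-08). CD1D changed by -2.69 in TALL-1 and by -0.21, with no call, in P12-ICHIKAWA. CCR8, a chemokine receptor, had the largest difference below 0, at -2.75 ± 0.46 (limma adjusted p = 2.33e-04), with -2.02 in TALL-1 and an uncalled 0.74 in P12-ICHIKAWA. VAV3 lay between 11.44 and 11.48 in P12-ICHIKAWA with NVS-ZP7-3 and changed there by 0.04, while in TALL-1 it fell by 2.44 to 3.19, 4.03 and 4.01, close to the floor, against 6.58, 5.87 and 6.11 with DMSO. TSHR (-2.63), the thyrotropin receptor, CMAHP (-2.54), a pseudogene, SLCO4A1 (-2.29), an organic anion transporter, HEMK2 (-2.25), a methyltransferase, and DPF3, GIMAP1, SCML1 and BAHCC1 (-2.10 to -1.93) completed the 12. With the ACTB measure as a covariate the HEMK2 difference was -1.58 and not called (limma adjusted p = 0.066). A fall past the floor of the scale is not seen.

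Most targets of ATF4 and CHOP rose in both lines, and more in TALL-1. Among all members 24.4% rose in TALL-1 and 5.04% in P12-ICHIKAWA, and 12.9% had a difference above 0. Of 17 members, 17 rose in TALL-1, 14 in P12-ICHIKAWA, and 13 had a difference above 0 and none below, with a median difference of 0.56 on the log2 scale against -0.0055 over all members. DDIT3 encodes CHOP. DDIT3 was at 10.30, 10.28 and 10.18 in TALL-1 with NVS-ZP7-3, against 7.37, 6.85 and 6.71 with DMSO, and at 9.81, 9.85 and 9.69 in P12-ICHIKAWA with NVS-ZP7-3, against 7.03, 7.29 and 6.90 with DMSO. Its rise was 3.28 in TALL-1 and 2.71 in P12-ICHIKAWA, and the difference of 0.56 ± 0.20 was not called (limma adjusted p = 0.0551; unadjusted 95% interval 0.14 to 0.99). TRIB3, a pseudokinase induced by CHOP, differed by far more. TRIB3 was at 11.74, 11.64 and 11.59 in TALL-1 with NVS-ZP7-3, against 7.63, 6.87 and 7.13 with DMSO, and at 8.76, 8.93 and 8.64 in P12-ICHIKAWA with NVS-ZP7-3, against 6.82, 6.70 and 6.39 with DMSO. The groups separated in both lines, and the difference was 2.31 ± 0.23 (limma adjusted p = 8.17e-07). SESN2, a stress-induced sestrin, rose by 3.76 in TALL-1 and 1.75 in P12-ICHIKAWA (limma adjusted p = 1.74e-04 for the difference). WIPI1, an autophagy protein, rose by 2.36 and 0.96 in the same order of lines, and ATF4 itself by 0.55 and 0.20. VEGFA was the only one of the 17 that, without a call, lay below 0 by more than 0.1, at -0.14. CHAC1, which breaks down glutathione and is not a member since it was near the floor with DMSO in TALL-1, was at 6.21, 6.08 and 6.10 in TALL-1 with NVS-ZP7-3, against 2.35, 2.20 and 2.20 with DMSO, and at 5.98, 6.05 and 5.95 in P12-ICHIKAWA with NVS-ZP7-3, against 3.89, 4.36 and 4.30 with DMSO.

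Of 10 amino acid transporters, 8 rose in TALL-1, while 1 rose and 2 fell in P12-ICHIKAWA, and 7 had a difference above 0. With the ACTB covariate 5 rose in TALL-1 and 4 had a difference above 0, and with arrays centred on their medians 5 rose and 1 fell in TALL-1. SLC3A2, the heavy chain of several amino acid exchangers, had the largest difference of them. SLC3A2 was at 11.43, 11.49 and 11.15 in TALL-1 with NVS-ZP7-3, against 9.49, 8.95 and 9.23 with DMSO, and at 9.64, 9.90 and 9.88 in P12-ICHIKAWA with NVS-ZP7-3, against 9.63, 9.30 and 9.23 with DMSO. It separated in both lines, though only in TALL-1 was it called, and the difference was 1.72 ± 0.20 (limma adjusted p = 6.06e-06). SLC7A11, the cystine exchanger that pairs with SLC3A2, rose in both, by 2.91 and 1.96, and differed by 0.95 ± 0.20. Of 17 cytosolic aminoacyl-tRNA synthetases, which load tRNAs with amino acids, 11 rose and 3 fell in TALL-1, 3 rose in P12-ICHIKAWA, and 10 had a difference above 0. Both lists are to be read beside all members, of which 24.4% rose and 23.9% fell in TALL-1. In P12-ICHIKAWA 5.04% of all members rose and 3.24% fell, and 12.9% had a difference above 0. WARS1 rose by 1.63 in TALL-1 and was not called in P12-ICHIKAWA (0.19). CARS1 rose in both, by 1.19 and 0.43. VARS1 went the other way, down by 1.18 in TALL-1, and its difference of -0.90 ± 0.32 was not called (limma adjusted p = 0.053).

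In the secretory pathway most coat and translocon genes differed between the lines. Among all members 24.4% rose and 23.9% fell in TALL-1, and 5.04% rose and 3.24% fell in P12-ICHIKAWA. A difference was called above 0 for 12.9% of all members and below 0 for 10.0%. Of 28 members of the COPII and COPI coats and their cargo receptors, which carry proteins between ER and Golgi, 25 rose in TALL-1 and 1 rose and 1 fell in P12-ICHIKAWA. A difference above 0 was called for 21, none was below 0, and 20 of the 21 were called in TALL-1 alone. The median response was 0.55 in TALL-1 and 0.0022 in P12-ICHIKAWA. SEC24D binds cargo in the COPII coat. SEC24D was at 13.002, 12.75 and 12.62 in TALL-1 with NVS-ZP7-3, against 10.98, 10.63 and 11.01 with DMSO, and at 8.40, 8.81 and 8.68 in P12-ICHIKAWA with NVS-ZP7-3, against 8.41, 8.36 and 8.57 with DMSO. The TALL-1 groups lay apart and the P12-ICHIKAWA groups overlapped, with a difference of 1.73 ± 0.20 (limma adjusted p = 6.06e-06). PREB, which activates the COPII GTPase, and COPG1, a COPI subunit, differed by 1.49 and 1.31. SURF4, a cargo receptor, was the 1 coat member that rose in both, by 0.97 and 0.19, but no coat member was called higher in P12-ICHIKAWA with the HBB covariate, with the mean of probe sets or without TALL-1 NVS-ZP7-3 replicate 2 and P12-ICHIKAWA NVS-ZP7-3 replicate 1. Of 29 members of the translocon, signal peptidase and oligosaccharyltransferase, which bring proteins into the ER and attach glycans, 26 rose and 2 fell in TALL-1, 4 rose in P12-ICHIKAWA, and 21 had a difference above 0. SEC61A1, the channel subunit, showed this. SEC61A1 was at 12.72, 12.70 and 12.70 in TALL-1 with NVS-ZP7-3, against 11.43, 11.24 and 11.17 with DMSO, and at 11.24, 11.23 and 11.14 in P12-ICHIKAWA with NVS-ZP7-3, against 11.14, 11.17 and 11.14 with DMSO. The P12-ICHIKAWA groups overlapped and the TALL-1 groups did not. SEC61A1 rose by 1.43 in TALL-1 and differed by 1.38 ± 0.11 (limma adjusted p = 4.18e-08). SRPRB, a subunit of the signal recognition particle receptor, differed by 0.94 ± 0.059 and SEC11C, a signal peptidase subunit that rose in both lines, by 1.10 ± 0.12. With the ACTB measure as a covariate 15 coat members and 19 translocon members had a call above 0, and without the same pair of arrays the counts were 18 and 18. The 4 translocon members higher in P12-ICHIKAWA, SEC11C among them, numbered 1 with the HBB covariate, without that pair and with the 12 arrays alone.

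Most ER chaperones and folding enzymes rose in both lines. Among all members 24.4% rose in TALL-1 and 5.04% in P12-ICHIKAWA, and 12.9% differed above 0 and 10.0% below. Of 27 members, 24 rose in TALL-1 and 16 in P12-ICHIKAWA, and the 16 rose in both. For 9 of these 16 no difference was called, among them CRELD2, SDF2L1, PDIA4 and HSP90B1. In all, 12 members differed above 0 and 2 below. HSPA5, the main ER chaperone BiP, was one of those 2. HSPA5 was at 14.58, 14.61 and 14.46 in TALL-1 with NVS-ZP7-3, against 14.21, 14.06 and 14.19 with DMSO, and at 14.45, 14.48 and 14.32 in P12-ICHIKAWA with NVS-ZP7-3, against 13.49, 13.40 and 13.21 with DMSO. The groups separated in both lines, and the rise was 0.40 in TALL-1 and 1.05 in P12-ICHIKAWA, a difference of -0.66 ± 0.095 (limma adjusted p = 5.34e-05). With DMSO, HSPA5 was higher in TALL-1 than in P12-ICHIKAWA, and a part of that level in the difference was not tested. A second HSPA5 probe set gave the same order, 0.78 in TALL-1 and 1.94 in P12-ICHIKAWA. ERO1B, an ER oxidase, rose by 1.26 in TALL-1 and 2.03 in P12-ICHIKAWA on its brightest probe set, a difference of -0.76 ± 0.20 (limma adjusted p = 0.00875). This direction rests on the probe set: the mean of both ERO1B probe sets gave 0.999, and the second lay at the floor on all P12-ICHIKAWA arrays (2.18 to 2.19). XBP1, the factor spliced by IRE1, is not a member because it was near the floor in P12-ICHIKAWA with DMSO. It was at 12.81, 12.63 and 12.47 in TALL-1 with NVS-ZP7-3, against 11.97, 11.68 and 11.96 with DMSO, and at 6.21, 5.96 and 5.29 in P12-ICHIKAWA with NVS-ZP7-3, against 2.60, 2.88 and 2.56 with DMSO.

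**Figure D3:**
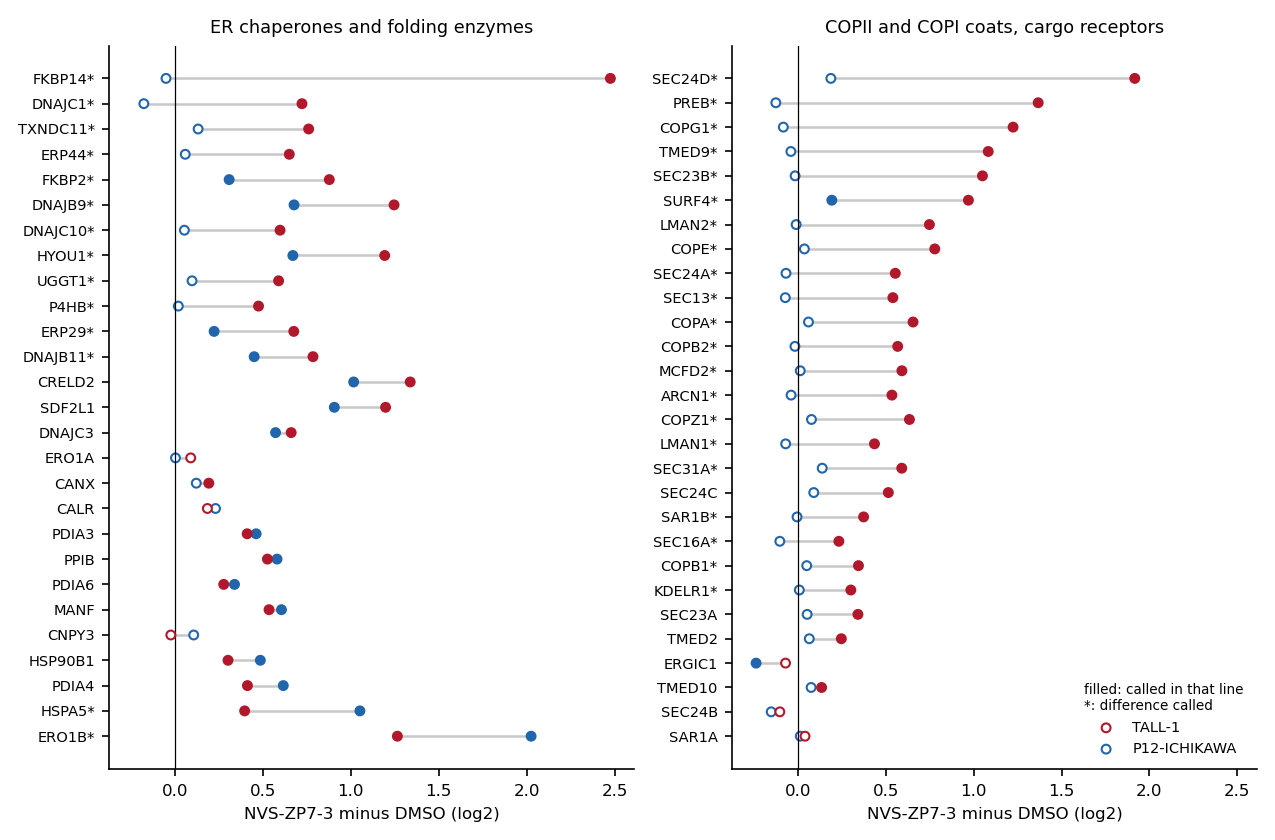
Response to NVS-ZP7-3 (log2) in TALL-1 (red) and P12-ICHIKAWA (blue) of the 27 ER chaperones and folding enzymes (left) and the 28 coat and cargo receptor members (right), 1 row a gene, sorted by difference. Filled points were called in that line and an asterisk marks a called difference. On the right nearly all blue points sit near 0, and on the left many lie beside the red ones.

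ER-associated degradation removes misfolded proteins. Of its 24 members, counting the sensors, 20 rose and 3 fell in TALL-1, 9 rose in P12-ICHIKAWA, 9 differed above 0 and 1 below. The shares over all members were 24.4% higher and 23.9% lower in TALL-1, 5.04% higher in P12-ICHIKAWA, 12.9% above 0 and 10.0% below. With the mean of probe sets 14 of the 24 differed above 0. EDEM2, which trims glycans of misfolded proteins, rose by 1.87 in TALL-1 and 0.29 in P12-ICHIKAWA. SELENOS, a selenoprotein of the ER membrane, rose by 1.52 in TALL-1 and changed by 0.03, with no call, in P12-ICHIKAWA. HERPUD1, which joins the degradation complex, rose by nearly the same amount in both, 1.21 and 1.15.

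**Figure D4:**
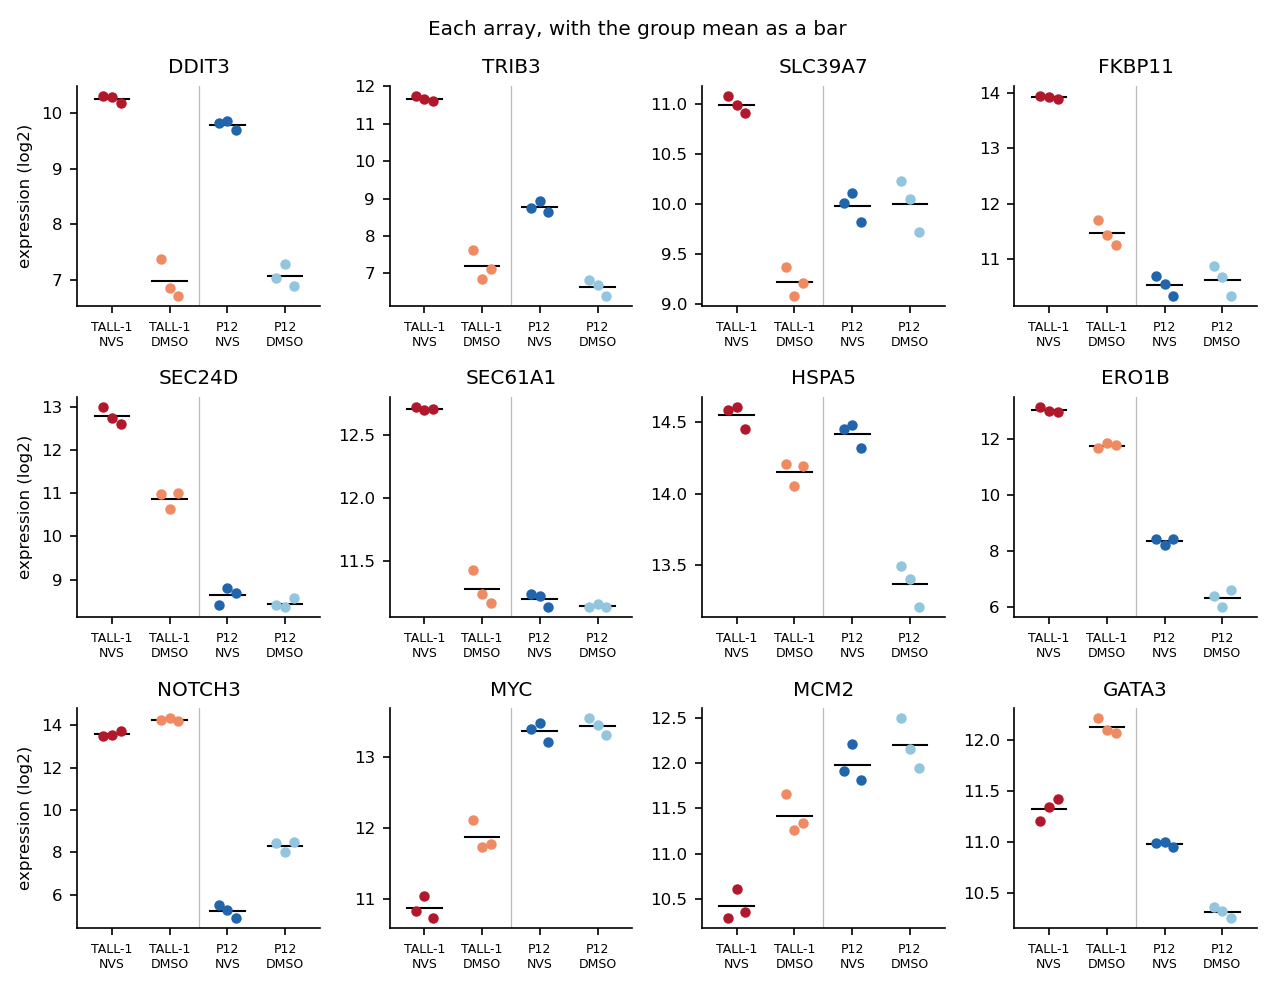
Expression (log2) of 12 genes on each array, in the order TALL-1 with NVS-ZP7-3, TALL-1 with DMSO, P12-ICHIKAWA with NVS-ZP7-3 and P12-ICHIKAWA with DMSO, with the group mean as a bar. DDIT3 separates in both lines, SLC39A7, FKBP11 and SEC24D in TALL-1, and GATA3 in opposite directions.

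SLC39A7, the transporter the compound class is known for, rose in TALL-1. SLC39A7 was at 11.08, 10.98 and 10.90 in TALL-1 with NVS-ZP7-3, against 9.37, 9.07 and 9.21 with DMSO, and at 10.002, 10.11 and 9.82 in P12-ICHIKAWA with NVS-ZP7-3, against 10.23, 10.04 and 9.72 with DMSO. The TALL-1 groups did not overlap and the P12-ICHIKAWA groups did, and the difference was 1.79 ± 0.15 (limma adjusted p = 8.30e-08). SLC30A1, which exports zinc across the plasma membrane, moved in opposite directions, by 0.62 in TALL-1 and -0.37 in P12-ICHIKAWA, both called. Of 13 zinc transporters 7 differed above 0 and 1, SLC39A10, below, against 12.9% and 10.0% of all members. Among 7 members of the metallothioneins and their regulator MTF1, MT1X alone had a called difference, at 0.54 ± 0.13 (limma adjusted p = 0.00449), from an uncalled 0.22 in TALL-1 and a fall of 0.32 in P12-ICHIKAWA. On the MT1X probe set brightest in DMSO of these lines the difference was 0.27 and not called (limma adjusted p = 0.0558).

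Notch genes did not move as a block. Of 15 members of the pathway and its targets, 10 fell and 1 rose in TALL-1, 3 fell in P12-ICHIKAWA, 2 differed above 0 and 6 below. Among all members 23.9% fell and 24.4% rose in TALL-1, and 3.24% fell in P12-ICHIKAWA. A difference was called above 0 for 12.9% of them, near the Notch share, and below 0 for 10.0%. The 2 Notch members above 0 fell further in P12-ICHIKAWA. NOTCH3 is a receptor and itself a Notch target. NOTCH3 was at 13.48, 13.53 and 13.70 in TALL-1 with NVS-ZP7-3, against 14.23, 14.33 and 14.19 with DMSO, and at 5.51, 5.29 and 4.89 in P12-ICHIKAWA with NVS-ZP7-3, against 8.46, 8.04 and 8.47 with DMSO. All treated arrays lay below the DMSO arrays in both lines, and the difference was 2.41 ± 0.20 (limma adjusted p = 9.81e-08). DTX1, a ubiquitin ligase of the pathway, fell by 1.65 in TALL-1 and 3.86 in P12-ICHIKAWA, where it came close to the floor. With the ACTB covariate the DTX1 difference was 1.56 and not called (limma adjusted p = 0.0631). MYC, a transcription factor that drives growth and is a Notch target, differed the other way. MYC was at 10.83, 11.05 and 10.72 in TALL-1 with NVS-ZP7-3, against 12.12, 11.73 and 11.77 with DMSO, and at 13.39, 13.48 and 13.22 in P12-ICHIKAWA with NVS-ZP7-3, against 13.55, 13.45 and 13.31 with DMSO. It fell by 1.0 in TALL-1 with no overlap and changed by -0.07 in P12-ICHIKAWA, and the difference was -0.93 ± 0.15 (limma adjusted p = 1.31e-04). HES1 fell in both, by 0.88 and 0.53, with a difference of -0.36 ± 0.069 that the mean of its probe sets did not call. A second HES1 probe set changed by -1.56 in TALL-1 and -1.45 in P12-ICHIKAWA, nearly alike. Another lay at the floor on every array of these lines. NOTCH1 fell by 0.94 in TALL-1, and its difference of -0.60 ± 0.31 was not called (limma adjusted p = 0.19). NRARP, a feedback inhibitor of Notch, is not a member because it was at 2.18 on every P12-ICHIKAWA array. It was at 8.95, 9.11 and 9.36 in TALL-1 with NVS-ZP7-3, against 11.21, 11.01 and 10.91 with DMSO.

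T lineage genes leaned below 0, with 9 of 20 members called below 0 and none above, against 10.0% and 12.9% of all members. Of the 9, 2 had a response called in P12-ICHIKAWA alone and 1 in neither line. The count was 6 with the ACTB covariate and 12 with arrays centred on their medians. GATA3, a factor of early T cell commitment, moved in opposite directions. GATA3 was at 11.21, 11.34 and 11.42 in TALL-1 with NVS-ZP7-3, against 12.22, 12.10 and 12.07 with DMSO, and at 10.99, 10.995 and 10.95 in P12-ICHIKAWA with NVS-ZP7-3, against 10.36, 10.32 and 10.25 with DMSO. The groups separated in both lines, down in TALL-1 and up in P12-ICHIKAWA, and the difference was -1.47 ± 0.083 (limma adjusted p = 7.09e-10). LCK, the proximal kinase of the T cell receptor, and BCL11B, a factor that holds T cell identity, fell in TALL-1 by 0.65 and 0.54 and were not called in P12-ICHIKAWA.

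Most replication genes fell in TALL-1. Of 45 DNA replication and S phase members, 42 fell and 2 rose in TALL-1, 14 fell in P12-ICHIKAWA, 31 differed below 0 and 2 above. UNG, which removes uracil from DNA, had the largest difference of them in size. UNG was at 11.72, 11.92 and 11.91 in TALL-1 with NVS-ZP7-3, against 13.01, 12.91 and 13.04 with DMSO, and at 13.24, 13.19 and 13.24 in P12-ICHIKAWA with NVS-ZP7-3, against 13.33, 13.33 and 13.28 with DMSO. TALL-1 separated widely and P12-ICHIKAWA by a small margin, with -1.13 and -0.09 as the responses and a difference of -1.04 ± 0.088 (limma adjusted p = 1.16e-07). MCM2 and MCM5, subunits of the replicative helicase, differed by -0.78 ± 0.18 and -0.74 ± 0.18. CDC6, which loads that helicase, rose by 0.33 in TALL-1 and fell by 0.26 in P12-ICHIKAWA. The count below 0 was 18 with the 12 arrays of these lines fitted alone, and the P12-ICHIKAWA falls numbered 4 with HBB as a covariate and 6 without the pair of arrays named above. Of 33 genes of G2/M and mitosis 6 differed below 0 and none above, and of 30 genes of ribosome biogenesis 8 below and 1 above. The shares over all members were 10.0% below and 12.9% above. Falls were called for 23.9% of all members in TALL-1 and 3.24% in P12-ICHIKAWA. For ribosome biogenesis the count below 0 was 4 with the 12 arrays alone, 5 with the ACTB covariate and 5 without the pair of arrays. For G2/M and mitosis it was 3 with the 12 arrays alone and 10 with the mean of probe sets. CDK4 and CCND3, a kinase and a cyclin of G1, differed by -0.39 and -0.47.

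Other groups showed few or mixed differences, to be read beside the 12.9% of all members above 0 and 10.0% below. Rises were called for 24.4% of all members in TALL-1 and 5.04% in P12-ICHIKAWA. Cholesterol synthesis rose in TALL-1 for 13 of 18 members and in P12-ICHIKAWA for 6, with 5 differences above 0, led by DHCR7 (0.99), the last enzyme of the pathway, and 1 below, STARD4 (-0.45), a sterol carrier. NQO1, a quinone reductase under NRF2, rose by 1.53 in TALL-1 and was not called in P12-ICHIKAWA (0.30). TXNIP, which binds thioredoxin and limits glucose uptake, rose in both, by 1.87 and 0.79, and differed by 1.08 ± 0.085 (limma adjusted p = 5.56e-08). Of 17 glycolysis members 6 differed below 0, and SLC2A3, a glucose transporter, above, at 1.29. The count below 0 was 3 with the ACTB covariate and 9 with arrays centred on their medians. Of 14 genes of the BCL2 family and death receptors 3 differed above 0, led by CASP9 (1.44), and 3 below, led by BCL2 (-0.85). With the ACTB covariate these counts were 0 and 1, and the CASP9 difference was 0.90 and not called (limma adjusted p = 0.129). Without the pair of arrays they were 3 and 1. Of 27 proteasome subunits 2 differed (1 with the ACTB covariate), of 31 respiratory chain members 1 (none with the HBB covariate), and of 12 interferon-linked genes 1, OAS3 (-1.14).

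**Figure D5:**
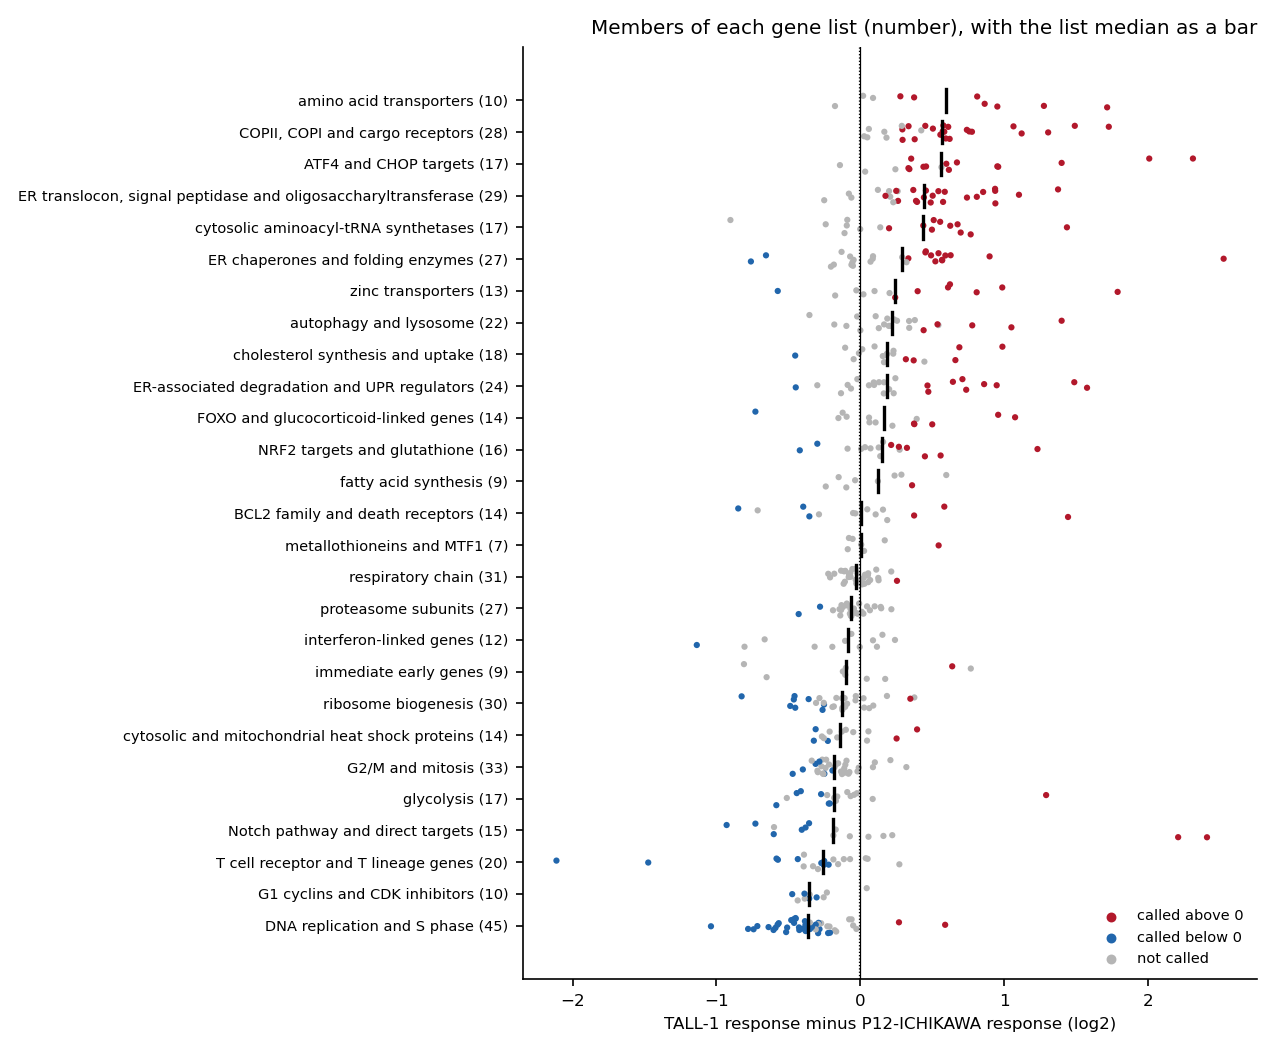
TALL-1 response minus P12-ICHIKAWA response (log2) of the members of each gene list with 5 or more members, 1 point a gene, with the list median as a bar and the number of members in brackets. Red and blue points are called above and below 0. Amino acid transporters, coats and ATF4 targets lie at the top, and DNA replication at the bottom with a median of -0.37.

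The promoters of these groups were searched for short sequences known to bind the factors named above, E2F and RBPJ. RefSeq gave a window from 250 bases before to 50 bases after the gene start (GRCh38.p14) for 6698 of the 7940 members. Both strands were searched, and a match is a description of letters only. The letters TGACGTGG, the core of an element bound by XBP1 and ATF6, were in 6 of 25 windows of coat and cargo receptor genes (24.0%), in 3.85% of the windows of members with a difference above 0, in 0.446% of those below 0 and in 1.06% of all member windows and 0.795% of all promoter windows. The ER stress element, known as a binding element of ATF6 with NF-Y and shown in full in the ERO1B and HSPA5 windows, was in 6 of 24 windows of ER chaperones, in 0.134% of all member windows and in 0.0806% of all promoter windows. Of the 6 genes with it, ERO1B, HSPA5, CRELD2, HSP90B1, CANX and CALR, the first 4 rose in both lines. In the full list of ER chaperones 16 of 27 members did so, so the genes with the element did not stand out. The letters TGATGNAA, the core of sites shared by ATF4 and C/EBP factors, were in 5 of 14 windows of aminoacyl-tRNA synthetases (35.7%) and 3 of 9 of amino acid transporters (33.3%), against 1.67% of member windows and 3.67% of all 27305 promoter windows. They were in 1 of 14 windows of the ATF4 and CHOP targets themselves (7.14%). TTTNGCGC, the letters of E2F sites, was in 15 of 38 replication windows (39.5%), against 3.57% of member windows and 1.83% of all. TGGGAA, the letters of sites of RBPJ, the DNA-binding factor of Notch signalling, did not stand out. It was in 2 of 12 Notch windows (16.7%), against 21.9% of member windows and 24.3% of all. SEC24D, TMED9 and FKBP14 had no window in the table. The last letters of the ER stress element are also those of TGACGTGG read on the other strand, and no window of the table held both.

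For each of these pairings but the Notch one, 2 windows are given, since they show where the motif lies. They are of the members with the largest size of difference that held it, and capitals mark the match. For the coats they were SEC24A at chr5:134648535-134648834 (plus strand), with a difference of 0.62, and COPA at chr1:160343201-160343500 (minus strand), at 0.59.
SEC24A: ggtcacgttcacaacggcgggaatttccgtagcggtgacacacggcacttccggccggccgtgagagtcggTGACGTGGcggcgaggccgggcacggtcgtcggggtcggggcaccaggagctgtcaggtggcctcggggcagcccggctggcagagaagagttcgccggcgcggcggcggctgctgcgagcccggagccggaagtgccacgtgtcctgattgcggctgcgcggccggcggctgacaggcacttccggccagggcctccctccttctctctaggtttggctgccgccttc
COPA: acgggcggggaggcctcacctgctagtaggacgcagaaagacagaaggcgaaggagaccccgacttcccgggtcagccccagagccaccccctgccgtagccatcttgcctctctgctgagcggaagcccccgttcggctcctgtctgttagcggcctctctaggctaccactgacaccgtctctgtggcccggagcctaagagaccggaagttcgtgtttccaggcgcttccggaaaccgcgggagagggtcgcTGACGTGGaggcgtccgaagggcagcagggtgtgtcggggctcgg
For the ER stress element they were ERO1B at chr1:236281909-236282208 (minus strand) and HSPA5 at chr9:125241294-125241593 (minus strand), whose differences are both below 0.
ERO1B: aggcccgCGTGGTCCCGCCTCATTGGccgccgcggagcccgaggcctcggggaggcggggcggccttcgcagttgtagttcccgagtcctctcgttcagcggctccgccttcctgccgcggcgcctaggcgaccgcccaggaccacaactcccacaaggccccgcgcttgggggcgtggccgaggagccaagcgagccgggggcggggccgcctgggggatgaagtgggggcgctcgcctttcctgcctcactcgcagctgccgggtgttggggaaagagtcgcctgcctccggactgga
HSPA5: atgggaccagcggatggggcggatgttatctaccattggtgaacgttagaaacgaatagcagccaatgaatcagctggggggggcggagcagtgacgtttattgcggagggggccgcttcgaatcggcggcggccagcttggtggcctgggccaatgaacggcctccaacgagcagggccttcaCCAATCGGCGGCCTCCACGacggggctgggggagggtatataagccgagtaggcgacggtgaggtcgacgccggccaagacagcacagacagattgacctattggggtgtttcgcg
For TGATGNAA they were SLC3A2 at chr11:62881449-62881748 (plus strand) and CARS1 at chr11:3057374-3057673 (minus strand), both above 0.
SLC3A2: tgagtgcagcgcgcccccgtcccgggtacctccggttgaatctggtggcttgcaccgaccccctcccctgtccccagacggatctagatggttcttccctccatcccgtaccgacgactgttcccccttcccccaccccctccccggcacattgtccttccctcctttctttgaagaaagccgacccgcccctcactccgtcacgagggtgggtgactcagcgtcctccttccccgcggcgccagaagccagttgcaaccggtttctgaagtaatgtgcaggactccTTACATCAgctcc
CARS1: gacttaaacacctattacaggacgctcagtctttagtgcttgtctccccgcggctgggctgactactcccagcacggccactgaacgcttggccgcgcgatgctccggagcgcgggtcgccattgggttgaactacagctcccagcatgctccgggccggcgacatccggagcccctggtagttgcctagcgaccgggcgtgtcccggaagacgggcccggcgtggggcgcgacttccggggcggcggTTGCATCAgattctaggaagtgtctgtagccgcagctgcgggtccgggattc
For the E2F letters they were MCM2 at chr3:127598161-127598460 (plus strand) and MCM7 at chr7:100101348-100101647 (minus strand), both below 0.
MCM2: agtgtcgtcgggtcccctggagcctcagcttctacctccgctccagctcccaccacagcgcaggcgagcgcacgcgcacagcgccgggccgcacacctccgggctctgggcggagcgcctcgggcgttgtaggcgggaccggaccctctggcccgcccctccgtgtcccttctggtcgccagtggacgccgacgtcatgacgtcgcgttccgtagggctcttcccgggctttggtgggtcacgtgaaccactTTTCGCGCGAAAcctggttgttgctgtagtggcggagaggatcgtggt
MCM7: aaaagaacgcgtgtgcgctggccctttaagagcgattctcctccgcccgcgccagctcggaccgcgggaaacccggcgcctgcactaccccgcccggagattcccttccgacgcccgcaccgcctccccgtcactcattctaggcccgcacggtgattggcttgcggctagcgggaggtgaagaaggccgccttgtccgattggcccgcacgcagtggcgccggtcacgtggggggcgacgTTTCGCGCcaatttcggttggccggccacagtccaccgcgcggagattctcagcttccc

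The other lines of the study share no array with this contrast, though they share its estimate of spread. Of the 1023 members above 0, 527 rose in RPMI-8402 (51.5%, against 16.1% of all members) and 66 fell, and 26 rose in SUPT11 (2.54%, against 0.995%). Of the 795 below 0, 364 fell in RPMI-8402 (45.8%, against 23.5%) and 59 rose, and 6 fell and 8 rose in SUPT11. Over all genes tested 15.1% rose and 21.5% fell in RPMI-8402, and 1.18% rose and 0.582% fell in SUPT11. SLC39A7 changed by 1.32 in RPMI-8402 and 0.05 in SUPT11, and SEC24D by 2.10 and 0.37. HSPA5 changed by 1.43 and 1.36. GATA3, which parted in direction between TALL-1 and P12-ICHIKAWA, changed by 0.22 and 0.01.

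The rule for members was a level, and 2721 tested genes missed it: 592 in TALL-1 only, 433 in P12-ICHIKAWA only and 1696 in both. Just inside it were NEDD9, UGDH and FBH1 (6.0 to 6.01), and just outside POLE, ARAP1 and PGGHG (5.99 to 6.0).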

How the data were processed

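The authors deposited log2 expression values of 54675 probe sets on 24 Affymetrix arrays, and GCRMA and limma are named in the submitters' processing notes, with no version. Per the labels, cells were treated for 16 h at 0.5% DMSO. On each array 52.4 to 53.9% of values were within 0.1 of a floor at 2.18. With no counts, precision depends on how many arrays there are and on signal above that floor.

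Names came from the platform annotation, updated through RefSeq: 41097 probe sets named 1 gene (41043 of them matched), 1801 more than 1 and 11777 no gene. Each of 19775 genes was represented by its brightest probe set, averaged over the 24 arrays. The test took the 10661 genes that reached log2 4 on 3 or more arrays. A model of 8 group means on all 24 arrays was fitted with limma 3.58.1 in R 4.3.3, with Benjamini-Hochberg adjustment over all 10661 genes and calls below 0.05. Errors are standard errors of that fit with 3 arrays a group. In simulated arrays 200 of 10661 genes were changed, in treated TALL-1 alone, with noise drawn independently for each gene. Of these, 90% were recovered at a log2 difference of 1 and 46% at 0.5, with 7 false calls. In the data 2259 genes were called and arrays can deviate together, so recovery and false calls there may differ.

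The members and the 28 gene lists were chosen with earlier results of these data known. Named genes were, among members, the 12 largest called differences in each direction, the 6 largest in opposite directions, the 6 largest called in P12-ICHIKAWA and larger there, the 6 largest shared responses, 3 from each list by size of difference, and key zinc, ER stress and Notch genes. Other genes are named to show a count or a motif and were chosen after their values were seen. Alternatives were other filters, probe set rules, scalings, covariates, a replicate block and leaving out arrays.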

Additional observations from a re-analysis of the deposited data

Results flagged for a closer look

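Among the 31 members called in both lines in opposite directions, 15 rose in TALL-1 and fell in P12-ICHIKAWA and 16 did the reverse. The 6 with the largest size are given because the treatment effect was called with opposite signs in the lines. The difference was called in limma for all 31, which this choice makes nearly certain, so it adds no support. PDE10A, a phosphodiesterase, differed by 2.30 ± 0.22. PDE10A was at 11.65, 11.68 and 11.59 in TALL-1 with NVS-ZP7-3, against 10.89, 11.02 and 10.70 with DMSO, and at 4.92, 4.74 and 4.33 in P12-ICHIKAWA with NVS-ZP7-3, against 6.20, 6.63 and 5.75 with DMSO. GRN, the granulin precursor, differed by 1.98 ± 0.26, with 0.83 in TALL-1 and -1.14 in P12-ICHIKAWA. TRIM2, a ubiquitin ligase, differed by 1.57 ± 0.23, with 0.57 and -1.0 in the same order. Over the 26 alternatives the TRIM2 difference ranged from 0.29 to 1.69 and stayed called. PDE10A, GRN and TRIM2 averaged 6.19, 6.43 and 6.22 in P12-ICHIKAWA with DMSO, not far above the level for members. With NVS-ZP7-3 they averaged 4.66, 5.29 and 5.22 there, below that level. GRN also averaged only 6.18 in TALL-1 with DMSO.

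The reverse direction was seen for MYOM2, a muscle M-band protein, at -1.67 ± 0.25, RORA, a nuclear receptor, at -1.64 ± 0.19, and GATA3, described above, at -1.47 ± 0.083. RORA was at 8.52, 8.57 and 8.54 in TALL-1 with NVS-ZP7-3, against 9.68, 9.66 and 9.66 with DMSO, and at 9.08, 8.67 and 8.78 in P12-ICHIKAWA with NVS-ZP7-3, against 8.52, 8.29 and 8.18 with DMSO. The RORA groups separated in both lines. MYOM2 changed by -1.04 in TALL-1 and 0.63 in P12-ICHIKAWA (limma adjusted p = 0.0372 for the P12-ICHIKAWA response). No cause was tested for any of the 6.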

How the results depend on the processing

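The counts of 1023 members above 0, 795 below 0, 3835 called in TALL-1 and 657 in P12-ICHIKAWA stayed within 1.5 times under other filters, probe set rules, scalings, an intensity trend, the ACTB covariate and the 12 arrays alone. They moved further at adjusted p below 0.01 (663 above, 421 below and 328 in P12-ICHIKAWA) and with a size of at least 1 (133 above, 63 below, 299 in TALL-1 and 32 in P12-ICHIKAWA). The P12-ICHIKAWA count also fell to 287 with HBB as a covariate and to 398 without TALL-1 NVS-ZP7-3 replicate 2 and P12-ICHIKAWA NVS-ZP7-3 replicate 1, an alternative chosen after seeing the data. HBB was high only on treated P12-ICHIKAWA arrays and on 1 treated TALL-1 array, so as a covariate it shares much of the P12-ICHIKAWA treatment effect. Leaving out each array in turn gave 846 to 1156 above 0, 615 to 827 below 0, 3297 to 3917 in TALL-1 and 443 to 693 in P12-ICHIKAWA. With the replicate number as a block the counts were 889 and 659 for the difference, 3575 in TALL-1 and 439 in P12-ICHIKAWA, and no coat or translocon member was called higher in P12-ICHIKAWA. Same-numbered arrays deviated together at -0.22, -0.20 and -0.11 in TALL-1 and at 0.059, 0.043 and 0.60 in P12-ICHIKAWA, so the numbers were not taken as pairs.

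Of the 115 named genes, 54 kept their side of the threshold under each of 26 alternatives, and those of them that were called kept their direction. Uncalled genes could change sign, as SREBF1 did (-0.095 to 0.435). The other 61 crossed the threshold at least once, 42 of the 115 under the demand for a size of at least 1. A single call reversed: ERO1B, at 0.999 with the mean of all probe sets. BYSL, PSMC3 and NDUFA1 lost their calls under 13, 11 and 10 alternatives. Genes at or near the floor have little spread there, and a change below it is not seen. The number of arrays limits the precision.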
